A study of Mus musculus with 3 samples.

Results

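Fibroblast growth factor (FGF) signalling was examined through 36 genes: 15 paracrine and 3 endocrine ligands, 4 intracellular FGFs, 5 receptors, 7 feedback inhibitors and 2 ETS transcription factors that the pathway induces. The genes were chosen by symbol for their place in the pathway, with earlier results of these data known. All 36 were on the array, with 57 of its 55681 probes. The RNA came from dorsal cortex of untreated mouse pups killed at postnatal day 4 and was read on 3 two-colour Agilent arrays. Each array held 1 Brpf1-deficient pup, labelled with the dye Cy5, and 1 wild-type pup, labelled with Cy3, and the labels number the pairs 1 to 3. BRPF1 is a scaffold protein of histone acetyltransferase complexes. The labels give neither strain, sex and allele nor the cells in which Brpf1 was lost, and do not say whether pairs came from separate litters, so p-values measure the spread between these 3 pairs.

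FGF ligands bind receptor tyrosine kinases together with heparan sulfate chains on the cell surface, and the receptors signal through RAS and the kinase ERK. ERK signalling induces the ETS factors Etv4 and Etv5, and also Dusp6 and the Sprouty and Spred genes, whose products restrain the same pathway. In the developing forebrain the pathway is known for patterning the cortical area map and for maintaining radial glia. The intracellular FGFs are not secreted and bind the tails of voltage-gated sodium channels.

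Brpf1 itself, measured by 1 probe, was brighter in Cy5 on every array: the log2 ratio, Cy5 over Cy3, was 0.62, 0.73 and 0.96 (mean 0.77 ± 0.17, SD, n = 3 arrays, limma adjusted p = 0.00447). This goes against the label of the Cy5 channel. In the authors' deposited table, whose direction is not stated, the log fold change of Brpf1 is -0.80. The labels do not give the deleted exons, and a probe outside them need not show their loss. Where this probe lies was not analysed here. All 5556 probes that passed the test have the opposite sign in the authors' deposited table, so its Brpf1 value is no separate evidence on direction. The genotype behind each direction remains unsettled. All values below are therefore given by channel: Cy5, labelled Brpf1-deficient, and Cy3, labelled wild type. No dye swap was made, so a dye effect on a gene and the genotype cannot be told apart.

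Between 57.9% and 58.2% of spots were well above background in Cy5 and between 59.9% and 61.0% in Cy3, and no spot was saturated. Precision is limited by there being only 3 arrays. The pups of a pair differed in sex-linked RNA: an Xist probe had log2 ratios of 4.24, -4.83 and 5.18 on arrays 1, 2 and 3, and the Y-linked Ddx3y had -5.33, 5.44 and -5.56. Array 1 stood apart for the cortical gene Emx1, with a log2 ratio of 0.65, against -2.72 on array 2 and -2.65 on array 3. All 10 cortical marker genes passed the brightness filter. All 8 markers of striatum passed it too, and their summed signal was 79170 to 87408 in Cy5 and 34631 to 67385 in Cy3 (5 brighter in Cy5, none in Cy3). The 6 markers of thalamus summed to 24038 to 24482 in Cy5 and 36898 to 43086 in Cy3 (none brighter in Cy5, 3 in Cy3). Towards Cy5 went 4 cortical, 2 microglial, 2 blood and 1 endothelial marker, and towards Cy3 1 cortical and 2 astrocyte markers, while no marker of meninges, the oligodendrocyte lineage or choroid plexus passed. The choroid plexus markers varied widely, with summed signals of 4517 to 72696 in Cy5 and 17399 to 67646 in Cy3. Among them, Ttr had log2 ratios of -2.60, 1.13 and 0.10 on arrays 1 to 3. The part of these cells and tissues and of sex in the FGF values was not tested. Without array 1 the 4 FGF genes called below still passed in limma, with adjusted p between 0.00734 for Fgf18 and 0.0490 for Fgf13. Because these are bulk samples, fewer cells of a type and less RNA per cell cannot be told apart.

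Tests covered probes that exceeded background clearly, by the scanner software's flag, in either channel on 2 or more arrays, and the brightest such probe stood for its gene. Of the 36 genes, 30 passed, 27 of them well above background in both channels on every array. The other 6 were the ligands Fgf2, Fgf3, Fgf4, Fgf16 and Fgf20 and the endocrine ligand Fgf21, a metabolic hormone best known from the liver. At an adjusted p under 0.05 in limma, 4 of the 30 genes differed between the channels (13.3%), against 3981 of all 23232 genes tested (17.1%). Of the 4, 1 was brighter in Cy5 (against 7.97% of all genes) and 3 were brighter in Cy3 (against 9.16%). The median log2 ratio was -0.02 over the 30 genes and -0.01 over all genes, with 14 FGF genes above 0 and 16 below. The FGF genes were thus called at a share near that of all genes. The 4 were the ligand Fgf18, the receptor Fgfr1 and the intracellular Fgf13, brighter in Cy3, and the ligand Fgf22, brighter in Cy5.

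**Figure D1:**
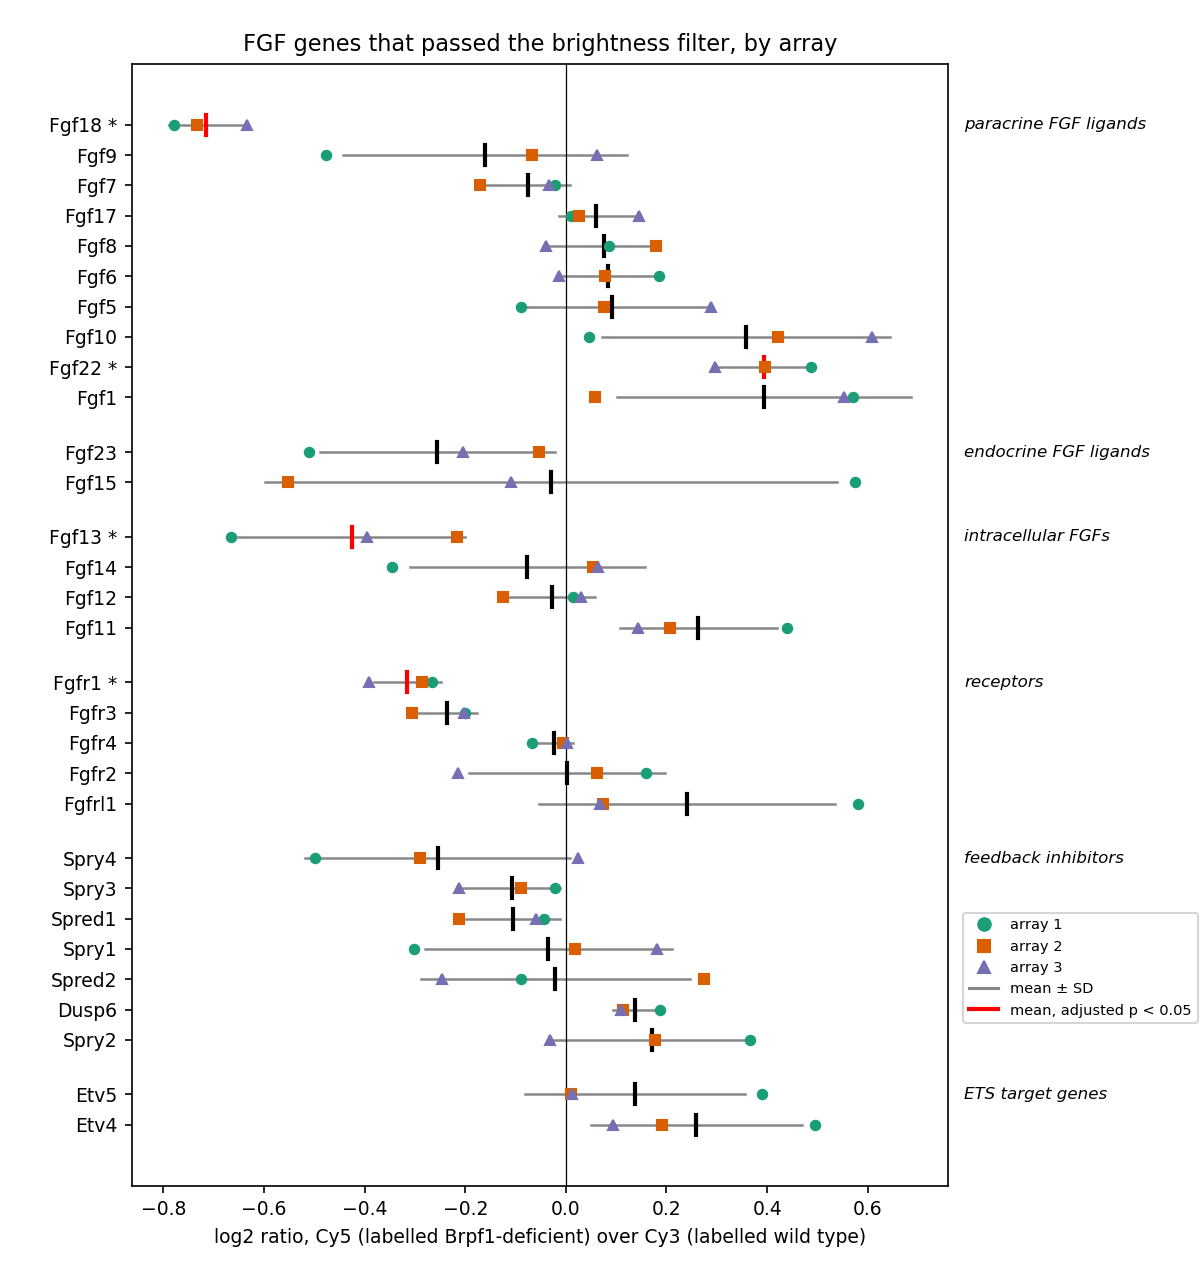
Log2 ratio of Cy5 (labelled Brpf1-deficient) over Cy3 (labelled wild type) for the 30 FGF genes that passed the brightness filter, grouped by role. Symbols are the 3 arrays, vertical bars the mean and grey lines the SD. Fgf18 lies below -0.6 on every array, while array 1 alone carries most of the ratio of Fgfrl1 and Etv5.

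The upstream sequences of the 2 called ligands are shown because they belong to the FGF genes with the most negative and the second most positive log2 ratio. They are the 250 bases before the gene start in RefSeq's GRCm38.p6 annotation, 5′ to 3′ on the gene's strand, with CG dinucleotides in capitals. Fgf18 lies at chr11:33147401-33147650 on the minus strand, and Fgf22 at chr10:79754859-79755108 on the plus strand.
Fgf18: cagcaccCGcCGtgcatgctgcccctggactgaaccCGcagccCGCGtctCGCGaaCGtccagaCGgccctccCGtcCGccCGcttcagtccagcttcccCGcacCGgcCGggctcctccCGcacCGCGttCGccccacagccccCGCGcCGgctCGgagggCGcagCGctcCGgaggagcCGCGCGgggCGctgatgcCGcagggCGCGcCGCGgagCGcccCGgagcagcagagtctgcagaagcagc
Fgf22: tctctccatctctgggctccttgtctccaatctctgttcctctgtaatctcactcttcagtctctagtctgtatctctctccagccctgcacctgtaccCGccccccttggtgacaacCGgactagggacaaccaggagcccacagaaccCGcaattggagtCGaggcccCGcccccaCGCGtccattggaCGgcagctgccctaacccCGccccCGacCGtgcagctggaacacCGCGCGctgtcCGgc
The Fgf18 window holds 37 CG dinucleotides and the Fgf22 window 15, where all promoters have a median of 6 and quartiles of 2 and 16. The ETS motif CCGGAA, searched on both strands, is in neither window, and in 4 of the 34 promoters listed for 26 of the FGF genes (11.8%), against 12.0% of all 32851 promoters. Its longer form CCGGAAGT, which contains it, is in 1 of the 34, that of Fgfrl1 (2.94%, against 2.88% of all). These letters are a description of the windows and not binding sites.

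Fgf18, a secreted ligand of the subfamily that also holds Fgf8 and Fgf17, had the most negative ratio of the FGF genes. Its brighter probe read 11.41, 11.43 and 11.43 in Cy5 on arrays 1 to 3 and 12.19, 12.16 and 12.06 in Cy3, as log2 intensity. Every Cy5 value lay below every Cy3 value. The log2 ratios were -0.78, -0.73 and -0.63, a mean of -0.71 ± 0.07 (SD, n = 3 arrays, limma adjusted p = 0.00268), so Fgf18 was 1.64-fold brighter in Cy3. This ratio lies at the 0.770th percentile of all genes tested. A second Fgf18 probe had log2 ratios of -0.86, -0.88 and -0.64 (mean -0.79 ± 0.13, limma adjusted p = 0.00280 over all probes). The probes differed by 0.08 ± 0.07, which did not pass the test (adjusted p = 0.565).

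The close relatives of Fgf18 were far dimmer, and no such ratio was seen for them. Fgf8, the ligand of the rostral patterning centre, read 7.75, 8.05 and 7.89 in Cy5 and 7.67, 7.87 and 7.93 in Cy3. Fgf17 read 7.34, 8.47 and 7.57 in Cy5 and 7.33, 8.45 and 7.42 in Cy3. The channels overlap for both genes, and Fgf17 differed more between pairs than between channels, since both pups of array 2 were high. Their log2 ratios were 0.07 ± 0.11 for Fgf8 (95% interval -0.10 to 0.25) and 0.06 ± 0.07 for Fgf17 (-0.10 to 0.22), and neither passed the test. Fgf17 turned to -0.15 with the processed signals of the scanner software and to -0.02 without background subtraction. By that software's flag, the Cy5 signal of Fgf17 cleared background on 2 of the 3 arrays. The Fgf8 probe used cleared it on all 3 in both channels, but the gene's other probes did so on none. At such low signal, the ratios do not show that Fgf8 and Fgf17 differ from Fgf18.

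Fgf22, a ligand known as a presynaptic organiser of excitatory synapses, had the only ratio called towards Cy5. It was dim: its probe read 7.83, 7.82 and 7.71 in Cy5 and 7.35, 7.43 and 7.41 in Cy3. The channels did not overlap. The log2 ratios of 0.49, 0.40 and 0.30 gave a mean of 0.39 ± 0.09 (n = 3 arrays, limma adjusted p = 0.0176), 1.31-fold brighter in Cy5. With the processed signals the mean was 0.71 and no longer passed (adjusted p = 0.0550).

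Of the relatives of Fgf22, Fgf10, known for timing the maturation of radial glia, read 9.14, 9.49 and 9.47 in Cy5 and 9.09, 9.06 and 8.86 in Cy3. Every Cy5 value was above every Cy3 value, but narrowly on array 1. The log2 ratios of 0.05, 0.42 and 0.61 (mean 0.36 ± 0.29) did not pass the test in limma (adjusted p = 0.0629), but did without array 1 (mean 0.51, adjusted p = 0.0175). It did not pass without array 2 (0.33, 0.0796) or array 3 (0.23, 0.251). Fgf7, which organises inhibitory synapses in the hippocampus, had -0.07 ± 0.08 (95% interval -0.24 to 0.09).

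Fgf1, a ligand that binds every FGF receptor, read 10.80, 10.62 and 10.49 in Cy5 and 10.23, 10.56 and 9.94 in Cy3. The channels overlapped. Its log2 ratios were 0.57, 0.06 and 0.55 (mean 0.39 ± 0.29, limma adjusted p = 0.0514), and a dimmer second probe had 0.20 ± 0.08. Without array 2 the mean was 0.56 and passed (adjusted p = 0.00110), but it was 0.31 without array 1 (0.144) and 0.31 without array 3 (0.164). Fgf1 lay close to the threshold and also passed, with adjusted p between 0.0251 and 0.0499, under 8 other alternatives, median centring among them. Fgf9, a ligand made by neurons, had -0.16 ± 0.28 and ranged from -0.48 on array 1 to 0.06 on array 3. Fgf5, known for ending hair growth, had 0.09 ± 0.19, and Fgf6, known from muscle, had 0.08 ± 0.10. None of these 3 passed. The Fgf6 probe used was dim, and each of its channels was well above background on only 2 of the 3 arrays.

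Neither of the 2 endocrine ligands tested passed. Fgf23, the phosphate hormone of bone, read 14.19, 14.77 and 14.69 in Cy5 and 14.70, 14.82 and 14.89 in Cy3 on 1 probe, while its other probe was not well above background in either channel on any array. The channels of the bright probe overlapped. Its log2 ratios were -0.51, -0.05 and -0.20 (mean -0.26 ± 0.23, limma adjusted p = 0.106), and the probes of this gene therefore give no common level. Without array 2 the mean was -0.36 and passed (adjusted p = 0.0412), while it was -0.13 without array 1 (0.248) and -0.28 without array 3 (0.192), and with median centring in place of loess it was 0.05. Fgf15, the mouse counterpart of human FGF19, had the widest spread of the 30 genes, with log2 ratios of 0.58, -0.55 and -0.11. It was dim, and each channel was well above background on only 2 of the 3 arrays.

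Among the intracellular FGFs, Fgf13, which binds sodium channels and microtubules, read 12.74, 13.16 and 13.08 in Cy5 and 13.40, 13.38 and 13.48 in Cy3. The channels did not overlap. Its log2 ratios were -0.66, -0.22 and -0.39 (mean -0.43 ± 0.23, n = 3 arrays, limma adjusted p = 0.0300), 1.34-fold brighter in Cy3. Fgf13 is X-linked. Of 594 X-linked genes tested, 27 were brighter in Cy5 and 86 in Cy3. Of all 23232 genes tested, 1852 (7.97%) were brighter in Cy5 and 2129 (9.16%) in Cy3. The X-linked calls thus leaned more to Cy3 than those of all genes. The median log2 ratio of the X-linked genes was -0.06. The part of X linkage or sex in the Fgf13 ratio was not tested. The Fgf13 call was lost with the processed signals (-0.41, adjusted p = 0.0778), with median centring (-0.28, 0.149) and without array 3 (-0.44, 0.0621).

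Fgf11 went the other way without passing the test. It read 7.88, 7.81 and 7.71 in Cy5 and 7.45, 7.60 and 7.57 in Cy3, which did not overlap, and its log2 ratios were 0.44, 0.21 and 0.14 (mean 0.26 ± 0.16, limma adjusted p = 0.0648). Fgf12 had -0.03 ± 0.09 on its brightest probe, and 0.22 and -0.24 on the others. Fgf14, whose human counterpart is mutated in a form of spinocerebellar ataxia, had -0.08 ± 0.23 on its brightest probe and 0.31 ± 0.07 on another (limma adjusted p = 0.0310 over all probes, of which 16.8% passed).

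**Figure D2:**
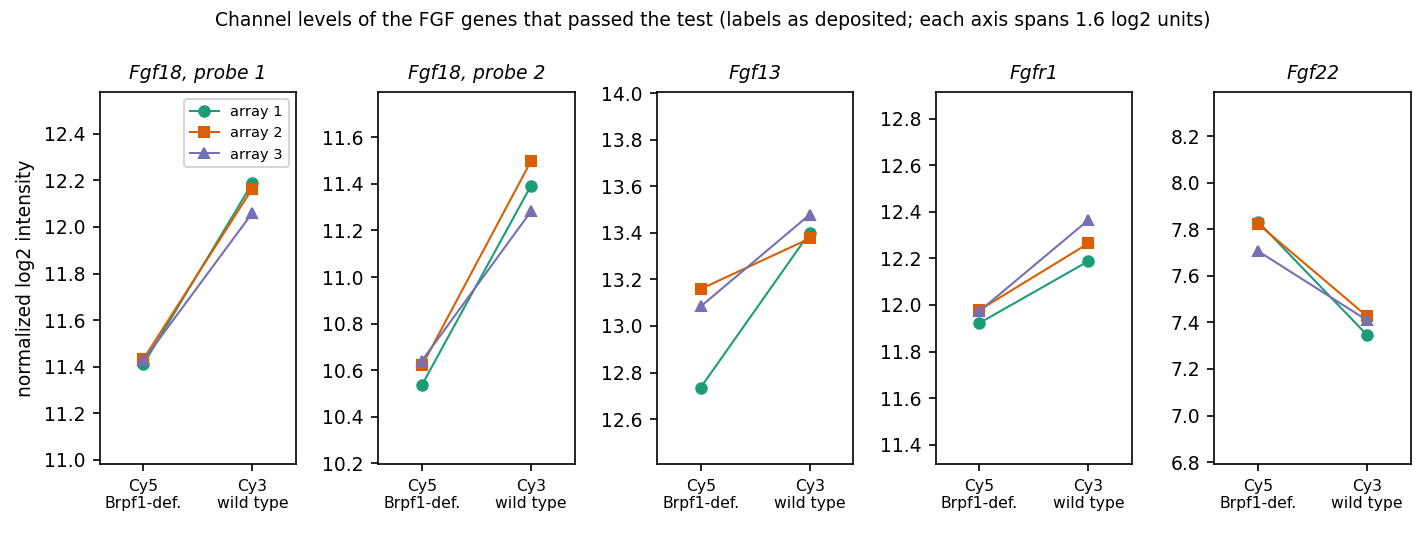
Log2 intensity of the probe that stands for each called FGF gene, and of a second Fgf18 probe. Cy5 (labelled Brpf1-deficient) is on the left and Cy3 (labelled wild type) on the right. Lines join the 2 pups of an array. Fgf18, Fgf13 and Fgfr1 are dimmer in Cy5 on every array, Fgf22 is brighter, and no gene's channels overlap.

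Of the 5 receptors, 1 passed the test. Fgfr1, a receptor tyrosine kinase, read 11.92, 11.98 and 11.97 in Cy5 and 12.19, 12.26 and 12.37 in Cy3 on its brightest probe. The channels did not overlap, and the log2 ratios of -0.27, -0.29 and -0.39 gave a mean of -0.31 ± 0.07 (n = 3 arrays, limma adjusted p = 0.0285), 1.24-fold brighter in Cy3. The other 2 probes of Fgfr1 had means of 0.12 (0.19, 0.20 and -0.05) and 0.23 (0.15, 0.24 and 0.29), so the gene's probes disagree in sign. The mean over the 3 probes was 0.01. The call of the brightest probe was also lost with the processed signals (adjusted p = 0.0766), with median centring (0.0772), without array 2 (0.0558) and without array 3 (0.141).

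Fgfr3, a receptor of radial glia and astrocytes, also had probes on both sides of 0. Its brightest probe read 12.82, 12.82 and 12.78 in Cy5 and 13.02, 13.13 and 12.99 in Cy3. The channels did not overlap, and the log2 ratios were -0.20, -0.31 and -0.20 (mean -0.24 ± 0.06, limma adjusted p = 0.0550). The second probe had 0.47, 0.11 and -0.06. The 6 astrocyte markers summed to 55134 to 57444 in Cy5 and 64847 to 69288 in Cy3, and their part in the Fgfr3 ratio was not tested. Fgfr2 had 0.00 ± 0.19 and Fgfr4 -0.02 ± 0.04.

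Fgfrl1, a receptor relative that lacks the kinase domain, read 11.42, 10.80 and 10.71 in Cy5 and 10.83, 10.73 and 10.64 in Cy3. The channels overlap. The log2 ratio was 0.58 on array 1 and 0.07 on arrays 2 and 3 (mean 0.24 ± 0.29, limma adjusted p = 0.163), and 0.07 without array 1.

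The difference between the probes of a gene was then tested itself, a fit added after the data were seen. Over all genes with more than 1 tested probe, 1113 of 9751 pairs of probes (11.4%) differed in ratio, and among the FGF genes 4 of 13 did. The brightest probe of Fgfr1 was lower than the others by log2 differences of -0.54 ± 0.13 (limma adjusted p = 0.0163) and -0.43 ± 0.08 (0.0232). The difference was -0.41 ± 0.27 for Fgfr3 (0.0489) and -0.38 ± 0.22 for 1 pair of Fgf14 (0.0471). Pairs that share the brightest probe of a gene are not independent. The transcripts that each probe reads were not analysed here.

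**Figure D3:**
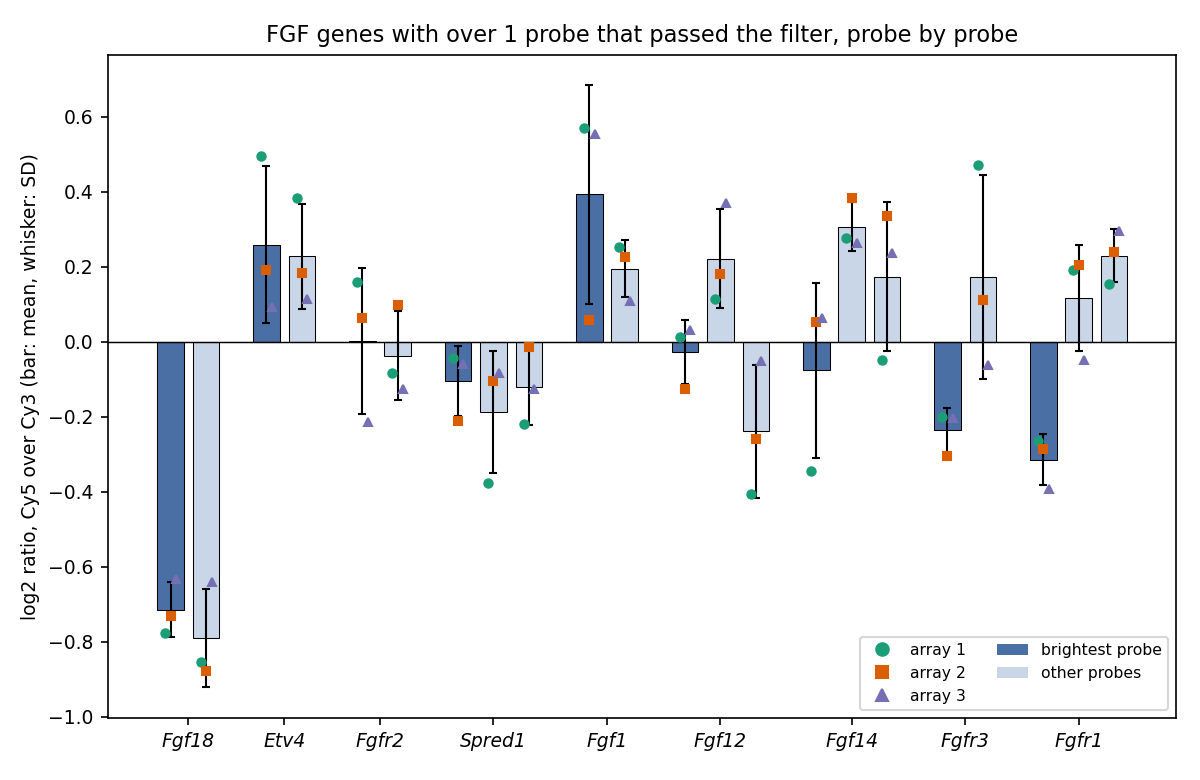
Log2 ratio of Cy5 (labelled Brpf1-deficient) over Cy3 (labelled wild type) by array for every probe of the 9 FGF genes with more than 1 tested probe, the brightest first. The probes of Fgf18 lie together, while those of Fgfr1, Fgfr3, Fgf14 and Fgf12 lie on both sides of 0.

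No feedback inhibitor passed the test in limma, and 2 of the 7 had a ratio above 0 and 5 below, with a median of -0.03. At an unadjusted p under 0.05, 1 did, Spry4, against 36.8% of all genes. The Sprouty genes encode inhibitors that act between the receptor and ERK. Spry4 read 7.28, 7.97 and 7.99 in Cy5 and 7.78, 8.26 and 7.96 in Cy3, with overlapping channels. Its log2 ratios were -0.50, -0.29 and 0.02 (mean -0.25 ± 0.26, limma adjusted p = 0.125). Spry2 had 0.17 ± 0.20, and both pups of array 1 were high for it: it read 9.81, 7.89 and 7.74 in Cy5 and 9.44, 7.71 and 7.77 in Cy3. Spry1 had -0.03 ± 0.25, the X-linked Spry3 -0.11 ± 0.10, Spred1 -0.11 ± 0.09 and Spred2 -0.02 ± 0.27.

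The other genes of the set that ERK induces did not pass either. Dusp6, a phosphatase that inactivates ERK and is counted among the 7 feedback inhibitors, read 13.73, 13.69 and 13.67 in Cy5 and 13.54, 13.58 and 13.56 in Cy3. The channels did not overlap, and the mean log2 ratio was 0.14 ± 0.04 (limma adjusted p = 0.185, 95% interval -0.02 to 0.29). Etv4 read 12.38, 11.96 and 11.94 in Cy5 and 11.88, 11.77 and 11.84 in Cy3, also without overlap, with log2 ratios of 0.49, 0.19 and 0.09 (mean 0.26 ± 0.21, limma adjusted p = 0.0896). Its second probe had 0.23 ± 0.14, and the difference of 0.03 ± 0.07 between the probes did not pass (adjusted p = 0.823). Etv5 had 0.39, 0.01 and 0.01 (mean 0.14 ± 0.22). All 3 passed with median centring in place of loess, where Dusp6 had 0.32 (adjusted p = 0.0267), Etv4 0.34 (0.0318) and Etv5 0.29 (0.0495). That setting moved the median of all genes to 0.09 and 83.4% of all calls to Cy5, against 46.5% after loess.

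Genes that work with the FGFs were taken from 4 lists, chosen with earlier results of these data known. Their counts stand beside 7.97% of all genes called towards Cy5 and 9.16% towards Cy3. Among 27 tested genes that relay the signal inside the cell, 3 passed with more signal in Cy5 and 2 with more in Cy3. This was 18.5%, against 17.1% of all genes. Pik3r1, the regulatory subunit of PI3 kinase, had log2 ratios of 0.47, 0.41 and 0.46 (0.45 ± 0.03, limma adjusted p = 0.0109). The ERK kinase gene Map2k1 had 0.34 ± 0.11 (0.0275). The RAS activator Sos2 had -0.39 ± 0.10 (0.0188) and the RAS inhibitor Rasa1 -0.38 ± 0.18 (0.0319). The activator and the inhibitor of RAS were both brighter in Cy3. The median of the list was -0.07.

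The 32 tested co-receptor and heparan sulfate genes held 3 calls towards Cy5 and 5 towards Cy3 (25%, against 17.1% of all genes). The median was -0.09. Sulf1, a sulfatase that trims heparan sulfate and so weakens FGF binding, had log2 ratios of 0.97, 0.60 and 0.86 (0.81 ± 0.19, limma adjusted p = 0.00428), with a second probe at 0.82. The glypican Gpc5 had 0.55 ± 0.18 (0.0122), with a second probe at 0.61. Flrt3, a membrane protein that binds FGF receptors and promotes their signalling, had -0.97, -0.55 and -0.58 (-0.70 ± 0.23, 0.00885), and its other probes had -0.85 and -0.87. N-cadherin, Cdh2, had -0.45, -0.52 and -0.59 (-0.52 ± 0.07, 0.00777), with a second probe at -0.41. For these 4 genes every probe tested gave the same sign.

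The 14 other feedback and ERK-induced genes tested held 3 calls towards Cy5 and 0 towards Cy3 (21.4%, against 17.1% of all genes). The median was nevertheless -0.05. Etv1, the third member of the Etv4 and Etv5 group, had 0.48 ± 0.13 (limma adjusted p = 0.0128), with a dimmer second probe at 0.01. Ccnd1, a cyclin of the first phase of the cell cycle, had 0.33 ± 0.14 (0.0350), and Junb, an immediate early transcription factor, had 0.31 ± 0.16 (0.0440).

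The 11 partners of the intracellular FGFs, all tested, held the highest share of calls of the 4 lists. Of them, 2 were brighter in Cy5 and 4 in Cy3 (54.5%, against 17.1% of all genes). The list is short and was chosen with earlier results known, so this share is a description only. The sodium channels Scn1a, Scn2a and Scn3a had log2 ratios of -0.59 ± 0.31 (limma adjusted p = 0.0209), -0.42 ± 0.16 (0.0212) and -0.38 ± 0.09 (0.0183). All 7 other probes of these 3 genes were below 0 as well, from -0.54 to -0.05. The auxiliary subunit Scn4b had 1.17, 0.24 and 1.05 (0.82 ± 0.50, 0.0233). The striatal markers had medians of 1.06, 0.22 and 0.67 on arrays 1 to 3, and their part in the Scn4b ratio was not tested. With the processed signals no partner passed, against 4.76% of all genes. With median centring 3 passed towards Cy5 and 0 towards Cy3, against 23.1% of all genes in both directions.

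**Figure D4:**
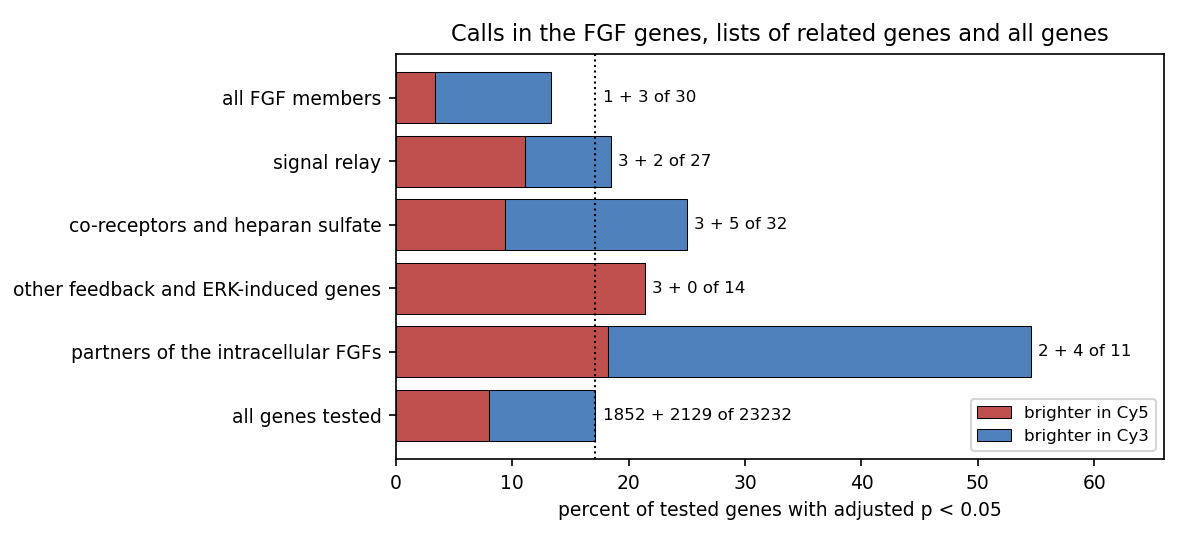
Share of tested genes with a limma adjusted p under 0.05, brighter in Cy5 (labelled Brpf1-deficient) and brighter in Cy3 (labelled wild type), for the FGF genes, 4 lists of related genes and all genes. The dotted line marks the 17.1% of all genes. The FGF genes lie below it at 13.3%, and the partners of the intracellular FGFs above it at 54.5%.

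In the authors' deposited table the 45 FGF probes listed have adjusted p-values of 0.240 to 0.616. No probe of any gene passes 0.05 there (0% of 39890 rows, the smallest adjusted p being 0.159), so this says nothing particular about the FGF genes. In that table the log fold change of Fgf18 is 0.73 and that of Fgf22 -0.81, opposite in sign to the ratios of Cy5 over Cy3 given here.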

How the data were processed

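RNA of 3 pairs of pups was amplified once from 350 ng and then coupled to the dyes, per the labels. The deposited scanner files give, per the file headers, a median pixel intensity in Cy5 and Cy3 for every spot and its surroundings, from Agilent Feature Extraction, with flags for spots well above background. Processed intensity, corrected for background and dye by that software, served in an alternative, and its log10 ratio of red over green, per the file headers, was not tested. The arrays share 1 slide and 1 scan. The authors' deposited table lists a log2 fold change and its p-value, raw and adjusted, for 39890 spots that are not controls. Its largest raw p-value is 0.458, and it holds 45 of the 57 FGF probes. It was made with limma, per the submitters' processing notes. The sign convention of its ratio is not given in the sources used here.

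Medians were corrected with normexp (offset 50) and normalized by loess within arrays, control spots at weight 0, in limma 3.58.1 under R 4.3.3. Spots of a probe were averaged, with outlier spots left out. The log2 ratio of Cy5 over Cy3 was tested against 0, two-sided, with an intercept-only fit, moderated variances and Benjamini-Hochberg adjustment over 23232 genes (threshold 0.05). The ± values are standard deviations (n = 3 arrays), and 95% intervals use the moderated variance. The fit was tested on simulated data with 200 changed genes. Each array is 1 pair, so the within-array ratio holds the pairing.

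Probes were named through RefSeq accessions (53 of the 57 FGF probes) or the authors' table (4). All 36 genes are named, with values by array for called genes and for mean ratios of at least 0.2 in size. From each list the 2 to 4 genes of smallest adjusted p are named. The FGF genes and the lists were chosen with earlier results of these data known. Protein and probe sequences were not used here. Alternatives changed the signals, background, normalization, filter, probe, names, variance and arrays. Some genes of the lists are not reported here by name.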

Additional observations from a re-analysis of the deposited data

How the results depend on the processing

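The sign of the Fgf18 ratio and its call held under every alternative run on the scanner files (-0.77 to -0.64, limma adjusted p between 6.91e-05 and 0.0232), though its adjusted p in the authors' deposited table is 0.240. With the processed signals 0 FGF genes were called towards Cy5 and 1 towards Cy3 (1 in all), against 575 and 530 of all genes (1105 in all), and the median of the FGF genes was 0.0053. With median centring 5 and 1 FGF genes were called, against 4466 and 891 of all genes, and the median was 0.053. Towards Cy5, Fgf1 joined Fgf22 (2 in all) with intensity bins set to 0, with the stricter filter, with the mean of a gene's probes and with a trend or robust variance, against 7.62% to 8.73% of all genes towards Cy5. With separate channels and no replicate block, 2 were called towards Cy5, against 8.10% of all genes. With every probe on its own 3 were (7 of 43 probes in both directions, against 16.8% of all probes), and without a filter 4 (7 of 36 genes in both directions, against 12.1% of all genes). Of these 4, Fgf1 and Fgf22 had passed the brightness filter, and the rest had not. The median was 0.0085 with intensity bins, -0.0022 with the mean of a gene's probes and 0.0024 with every probe on its own. Leaving out 1 array at a time gave 1 to 2 FGF genes towards Cy5, 1 to 3 towards Cy3 and 2 to 5 in all, a median of -0.0022 to 0.013, and 1860 to 3801 called genes (761 to 1620 towards Cy5, 1099 to 2181 towards Cy3, or 8.01% to 16.4% of all genes in all). The lowest of these counts came without array 3.

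Ratios near 0 changed sign. With the processed signals these were Fgf17 (-0.15), Spred2 (0.011) and Spry1 (0.026). Without background subtraction they were Fgf15 (0.012) and Fgf17 (-0.018), and with an offset of 10 Fgfr2 (-0.00062). With median centring they were Fgf12 (0.14), Fgf14 (0.0029), Fgfr4 (0.017), Spred1 (0.030), Spred2 (0.025), Spry1 (0.034) and also Fgf23 (0.047), whose main ratio was -0.26. With intensity bins they were Fgf12 (0.0089) and Fgf15 (0.0081). With the mean of probes they were Fgf14 (0.14), Fgfr1 (0.010), which had been called, and Fgfr2 (-0.018). Leaving out 1 array at a time gave Fgf14 -0.15 to 0.058, Fgfr2 -0.076 to 0.11, Spred2 -0.17 to 0.092, Spry1 -0.14 to 0.099, Fgf12 -0.056 to 0.022, Fgf15 -0.33 to 0.23 and Fgf5 -0.0067 to 0.18. The causes were not tested. Among the lists, the processed signals left 1 of the 27 relay genes called towards Cy5 and 0 towards Cy3. Of the 32 co-receptor genes they left 2 and 3. That setting called 4.76% of all genes, 2.48% towards Cy5. Median centring gave 7 and 0 relay genes, and 5 and 1 co-receptor genes. It called 23.1% of all genes, 19.2% towards Cy5. Signal over background limits the dim genes, Fgf22, Fgf11 and Spry4 among them. The separate-channel fit with no replicate block changed no call of the 4 FGF genes and added 2 (Fgf11 and Fgfr3).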

Other observations

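Further genes of the lists, named here after their values were seen, also passed the test in limma. Mapk3, which encodes the ERK kinase ERK1, read 0.54, 0.29 and 0.21 as log2 ratio of Cy5 over Cy3 (mean 0.35 ± 0.17, SD, n = 3 arrays, adjusted p = 0.0355), with a second probe at 0.17. Among the heparan sulfate genes, the syndecan Sdc1 had 0.40 ± 0.22 (adjusted p = 0.0327). The sulfotransferase Ndst3 had -0.47 ± 0.18 (0.0176), the glypican Gpc6 -0.58 ± 0.37 (0.0305) and the glypican Gpc4 -0.31 ± 0.11 (0.0352), the last with a dim second probe at 0.13. The glypicans Gpc5 and Gpc6 were thus brighter in opposite channels. Among the partners of the intracellular FGFs, the auxiliary subunit Scn3b had -0.25, -0.25 and -0.22 (mean -0.24 ± 0.01, adjusted p = 0.0491). This lies at the threshold: fitted in limma over all probes, the same probe did not pass (adjusted p = 0.0519).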
